A study of Rattus norvegicus with 4 samples.

Results

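This report compares 2 arrays of serum exosome RNA, the moderate array (day 49) and the light array (day 35), from rats with hepatocellular carcinoma (HCC), a cancer of hepatocytes. Its subjects are all rat microRNAs (miRNAs) that the scanner software detected on either of these arrays, 176 of the 719 on the design. The light array detected 122 of them and the moderate array 176, so each miRNA detected on the light array was also detected on the moderate array.

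Exosomes are small vesicles that cells release into blood, and they carry miRNAs, short RNAs that pair through their seed (bases 2 to 8) with messenger RNAs and lower their output. Several miRNAs are made mostly in 1 kind of cell, such as hepatocytes, red cells or muscle, and their level in serum is often read as a sign of its source. Most miRNA in serum comes from blood cells and platelets, and a tissue miRNA such as miR-122 is used as a serum marker of liver injury.

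The series holds 4 arrays of male rats, 1 for each group: an uninjected naive group at day 0, a light group at day 35, and moderate and severe groups that were both sampled at day 49. Per the treatment protocol the tumour-bearing rats received cells of an unnamed HCC line, whereas the design text, which gives the strain as "baffolo", speaks of tumour exosomes. Each array holds serum exosome RNA labelled with Cy3, and the labels do not say whether RNA of several rats was pooled. The design text speaks of 4 independent experiments per time, with different rats. The words light and moderate are those of the titles, with no stated measure, and grade and day differ together here, so they cannot be told apart. With 1 array a side there is no replicate error and no test. An error written with ± is a standard error (SE) over the replicate spots of 1 array, and covers spot noise only.

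Most miRNAs were brighter on the moderate array than on the light array, and 4 of 117 were dimmer. Of the 117 miRNAs measured on both (detected, and at or above the lowest probe signal that stood well above background), the median unscaled signal was 2.66 times as high on the moderate array. The summed signal of detected miRNAs was 2.46 times as high. The labelling spike-ins, RNAs added in a fixed amount, did not share this: dmr_285 read 0.921 times and dmr_31a 0.873 times its light value. How far the amount of RNA labelled differed was not tested. To compare make-up, each array was divided by its 75th percentile, taken over those 111 miRNAs that all 4 arrays detected, 356 intensity units on light and 954 on moderate. On unscaled signals the median of all miRNAs was 1.41 and the median of each of the 13 lists with at least 3 members measured lay above 0, so a list said here to be lower is lower relative to the 75th percentile. All log2 differences below are moderate minus light after that scaling, unless a signal is called unscaled. In serum, fewer vesicles from a tissue and less miRNA per vesicle cannot be told apart.

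After scaling, the arrays were close in make-up. Of the 117 miRNAs, 92 lay within 1.5-fold and 101 within 2-fold, with a median log2 difference of −0.01 and quartiles of −0.28 and 0.23. Log2 signals correlated at Pearson r = 0.965 across the 117 miRNAs, which are not independent replicates and share slide, label and probe design. There were 8 miRNAs at least 2-fold higher on the moderate array (6.84% of those measured on both) and 8 at least 2-fold lower (6.84%). The higher ones were miRNAs of muscle (miR-1-3p, miR-133b-3p), of vessel wall and connective tissue (miR-10a-5p, miR-10b-5p, miR-143-3p, miR-99a-5p), of hepatocytes (miR-122-5p), and miR-212-3p. The lower ones were miR-142-3p, miR-144-3p, miR-672-5p, miR-181b-5p, let-7d-3p, miR-32-3p, miR-466b-5p and miR-423-5p. This split depended on the scaling, with 99 higher and 0 lower on unscaled signals, and 104 and 0 after division by the spike-ins. With normexp, a background correction that also added 50 units to each spot, it was 1 and 8.

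The muscle miRNAs miR-206-3p and miR-133a-3p share their seeds with miR-1-3p and miR-133b-3p, but were not detected on the light array. Their mature sequences, and those of the higher miRNAs, are shown because they identify the seeds. They are written 5′ to 3′ from RefSeq (GRCr8), with the seed in capitals, and 158 of the 176 miRNAs had an entry; miR-99a-5p is named only.
miR-1-3p: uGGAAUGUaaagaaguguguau
miR-206-3p: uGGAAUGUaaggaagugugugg
miR-133b-3p: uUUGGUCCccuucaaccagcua
miR-133a-3p: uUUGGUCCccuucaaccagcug
miR-122-5p: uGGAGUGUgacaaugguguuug
miR-10a-5p: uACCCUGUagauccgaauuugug
miR-10b-5p: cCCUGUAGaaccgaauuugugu
miR-143-3p: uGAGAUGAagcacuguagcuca
miR-212-3p: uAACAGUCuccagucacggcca

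The seed of miR-1-3p and miR-206-3p is the same, and their 22 bases differ at 3 positions. miR-133a-3p and miR-133b-3p differ at 1 of 22 positions, and cross-binding of their probes was not tested. miR-10b-5p is entered in RefSeq as starting 2 bases further in than miR-10a-5p, which gives it other letters at bases 2 to 8. Over the 21 positions that align, the pair differs at 1.

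The 8 lower miRNAs are shown because they make up the other side of the comparison, and their seeds differ from each other. The seed of miR-181b-5p is also that of miR-181a-5p, miR-181c-5p and miR-181d-5p.
miR-142-3p: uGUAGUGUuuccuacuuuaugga
miR-144-3p: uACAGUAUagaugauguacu
miR-672-5p: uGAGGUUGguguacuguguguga
miR-181b-5p: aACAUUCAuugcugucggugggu
let-7d-3p: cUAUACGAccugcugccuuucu
miR-32-3p: gCAAUUUAgugugugugauauu
miR-466b-5p: uAUGUGUGuguguauguccaug
miR-423-5p: uGAGGGGCagagagcgagacuuuu

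The GC content was 31.8% to 54.5% in the 7 higher miRNAs with a sequence and 30.0% to 54.2% in the 8 lower ones. Over the 107 miRNAs measured on both with a sequence, the log2 difference had a Spearman rho of 0.173 with GC content, given as a description of probes on 1 slide.

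**Figure D1:**
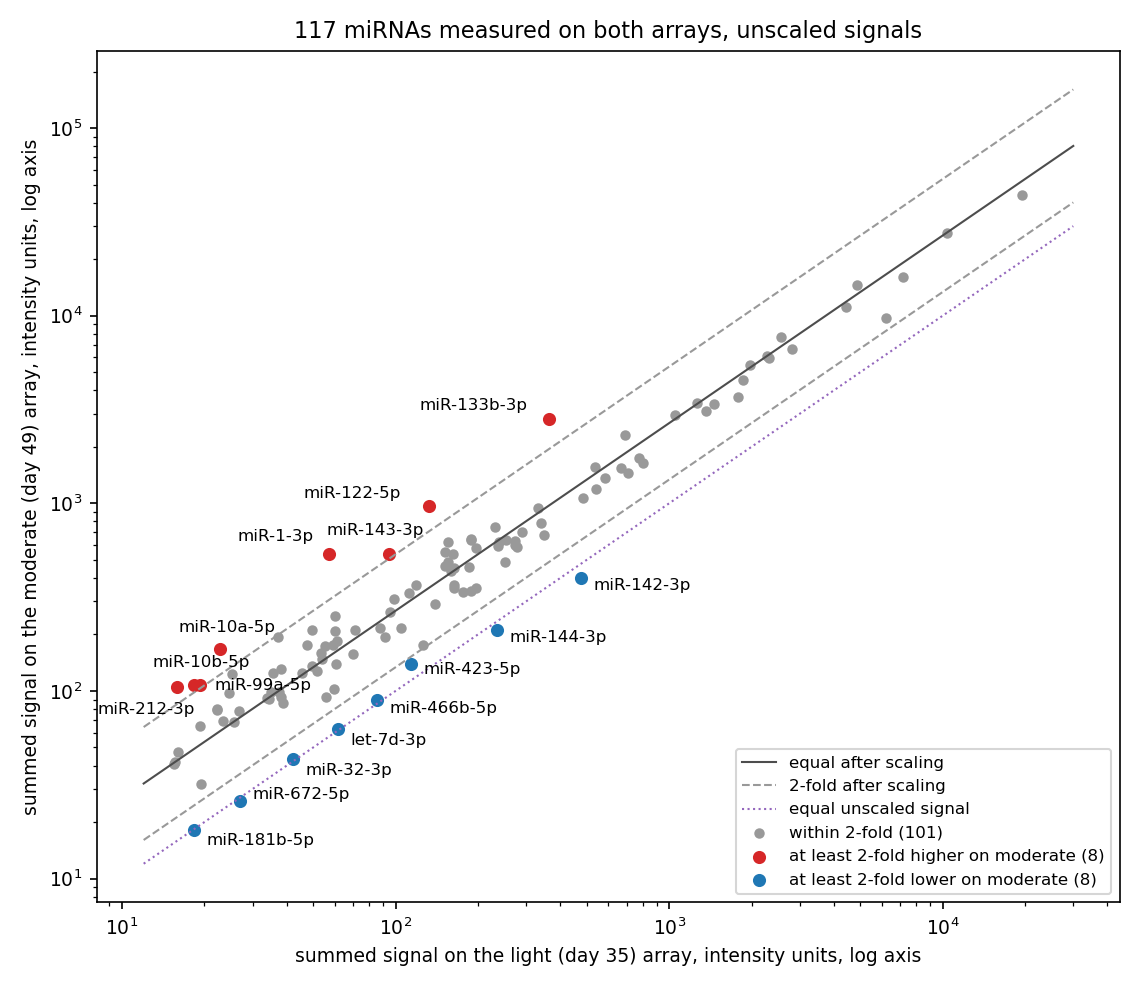
Summed signal of each of the 117 miRNAs on the light array (x) and the moderate array (y), in unscaled intensity units on log axes; the solid line is equality after scaling, dashed lines are 2-fold from it, and the dotted line is equal unscaled signal. The 8 lower miRNAs lie along the dotted line, at 0.842 to 1.23 times their light signal, and the 8 higher ones at 5.54 to 9.42 times.

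Among the higher miRNAs, the 2 largest differences were those of muscle miRNAs. miR-1-3p, the main miRNA of heart and skeletal muscle, read 57.2 ± 1.55 intensity units on the light array and 539 ± 6.86 on the moderate array. On the naive array it read 130, and on the severe array it was not detected, at 2.28. After scaling it was 3.52-fold higher on moderate than on light (log2 1.81 ± 0.04), the largest difference of the 117. miR-133b-3p, which shares a primary transcript with miR-206 in skeletal muscle, read 363 ± 3.35 on light and 2830 ± 9.46 on moderate. Its naive signal was 1114 and its severe signal 39.4. The scaled difference was 2.91-fold (log2 1.54 ± 0.01), and both of its probes gave it, at 1.52 and 1.66. The moderate array was the highest of the 4 for both miRNAs and the severe array the lowest, with naive above light.

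In the muscle list, 4 other miRNAs were detected on the moderate array and not on the light array, as were 54 of all 176 miRNAs. The reverse held for 0 of the 176. miR-133a-3p read 43.9 on moderate and −6.31 on light, a bound of at least 1.08-fold after scaling. miR-499-5p, encoded within a myosin heavy chain gene of slow muscle and heart, read 33.0 against −0.568. miR-206-3p, of skeletal muscle, read 18.2 against −2.65, and miR-133a-5p 19.5 against −10.9. None of these 3 had a bound above 1-fold: divided by the scale ratio of 2.68, their signals fall under the floor of the light array, 15.1. Of the 8 muscle miRNAs listed, 2 were measured on both arrays, 4 were detected on moderate alone, and miR-208a-3p and miR-208b-3p, of heart, were detected on neither. The summed scaled signal of the list's measured members was 1.18 on light and 3.53 on moderate. The heart miRNA arm miR-208a-5p, which the list does not hold, was detected on moderate alone, at 32.1 against −3.17. It too had no bound above 1-fold. In GRCr8 the miR-206 and miR-133b genes lie together on the plus strand of chromosome 9, with the mature miR-206-3p at chr9:30590747-30590768 and miR-133b-3p at chr9:30594629-30594650. A copy of miR-1 and miR-133a lies on the minus strand of chromosome 18, at chr18:2160339-2160360 and chr18:2157886-2157907.

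miR-122-5p, the most abundant miRNA of hepatocytes, read 132 ± 2.03 on the light array and 964 ± 9.59 on the moderate array. It read 1123 on naive and 417 on severe. The light array was the lowest of the 4, on unscaled and on scaled signals. The scaled difference between moderate and light was 2.72-fold (log2 1.44 ± 0.03), with the 2 probes at 1.34 and 1.69. Against naive, the light array stood at −2.18 and the moderate array at −0.74 after scaling, and these differences share the naive array. miR-122-5p was the only one of the 8 whose scaled naive value lay above both. The other arm, miR-122-3p, was detected on the naive, moderate and severe arrays, at 25.7, 35.1 and 14.9, and not on the light array, at −2.46. Both arms of the hairpin had their lowest reading on light. For miR-122-3p this gave no bound above 1-fold: its moderate signal divided by the scale ratio of 2.68 falls under the light floor of 15.1.

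The rest of the liver list did not follow miR-122. Of its 9 miRNAs on the array, 5 were measured on both arrays. Past 2-fold was 1 of them, miR-122-5p, against 16 of all 117. The list median was 0.16, against −0.01 over all miRNAs. miR-192-5p, shared by liver and gut, stood at 0.20, and miR-215, of the same seed, at −0.38. miR-483-5p, encoded within the Igf2 gene, stood at 0.16 and miR-101a-3p at −0.02. miR-193-3p was measured on moderate alone, at 38.7 against 6.13, with no bound above 1-fold.

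The endothelial and stromal list was chosen with earlier results of these data known, so its counts describe it and support nothing. All 10 members measured on both arrays lay above 0, against 58 of all 117 miRNAs. These are not 10 separate observations, since miR-199a-3p and miR-214-3p lie together in the genome, as do miR-23b-3p and miR-27b-3p. Of the 10, 4 were at least 2-fold higher, against 6.84% of all, and 3 of those 4 (miR-10a-5p, miR-10b-5p and miR-99a-5p) were near the light floor with 1 of 2 probes above background on both arrays. The median was 0.91, between miR-214-3p and miR-199a-3p, which also had 1 of 2 probes above background on both arrays. The summed scaled signal of the 10 was 1.88 on light and 2.92 on moderate. The median minus the median of all miRNAs was 0.92, and between 0.08 and 0.92 under the alternatives, lowest with normexp, where the list's own median was −0.25. miR-10a-5p, from the HoxB cluster, read 22.8 ± 1.05 on light and 167 ± 2.27 on moderate, a scaled difference of 2.74-fold (log2 1.45 ± 0.07). The naive signal was 53.2, and the severe signal of 210 was the highest of the 4. miR-10b-5p, from the HoxD cluster, read 18.3 ± 0.685 and 107 ± 1.72, or 2.18-fold (log2 1.13 ± 0.06). The naive and severe arrays read 32.0 and 21.7. After scaling, naive, light and severe lay at 0.0481, 0.0515 and 0.0522 and moderate at 0.112.

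miR-143-3p, of smooth muscle and fibroblasts, read 95.0 ± 2.59 on light and 537 ± 4.94 on moderate, with 151 on naive and 36.1 on severe. That was 2.11-fold after scaling (log2 1.08 ± 0.04), with both probes above 2-fold, at 1.04 and 1.27. Its neighbour miR-145-5p was detected on neither array. miR-99a-5p, of a family related to miR-10, read 19.3 ± 0.977 and 107 ± 1.30, or 2.07-fold (log2 1.05 ± 0.08). The naive and severe arrays read 53.7 and 190, so severe was again the highest. Just short of 2-fold were miR-199a-3p at 0.96 (37.1 against 194) and miR-214-3p at 0.86 (25.3 against 123), fibroblast miRNAs made from 1 transcript. Each had 1 of 2 probes above background on both arrays, with differences of 0.90 and 0.74. On light, 10 and 5 of their 20 spots stood well above background. They lie together at chr13:77116294-77116315 and chr13:77121713-77121733 in GRCr8. miR-125b-5p, of mesenchymal cells, read 1.02 on light and 77.0 on moderate, a bound of at least 1.90-fold. It had 0 of 20 spots well above background on light and 10 of 20 on moderate.

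The remaining members were nearer to equal. miR-126a-3p, the best known endothelial miRNA, stood at 0.55, miR-497-5p at 0.46, and miR-23b-3p and miR-27b-3p both at 0.34. miR-195-5p, processed with miR-497, was measured on moderate alone, with a bound of at least 1.19-fold. miR-100-5p and miR-152-3p were also detected on moderate alone, at 16.8 and 17.1. The 5 that were detected on neither array were miR-143-5p, miR-145-5p, miR-145-3p, miR-199a-5p and miR-214-5p.

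miR-212-3p, a miRNA induced by the transcription factor CREB and abundant in neurons, read 15.9 ± 0.812 on light and 105 ± 0.909 on moderate, with 32.6 on naive and 81.5 on severe. The scaled difference was 2.46-fold (log2 1.30 ± 0.07). Its partner in the same transcript, miR-132-3p, was not detected on either array. Of the other neural miRNAs, miR-128-3p stood at 0.31, and 9 of the 11 on the array were detected on neither. Most rat miRNAs were detected on neither, since 176 of all 719 were detected on either, so this count does not set the neural list apart.

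How firmly the higher miRNAs were measured differed between them. miR-10a-5p, miR-10b-5p, miR-99a-5p and miR-212-3p read 15.9 to 22.8 on the light array, near its floor of 15.1, and each had 1 of 2 probes above background on both arrays. For those single probes the difference was 1.40, 0.96, 0.88 and 0.91. These 4 also changed sign with normexp, to −0.14, −0.41, −0.44 and −0.40. miR-1-3p, miR-133b-3p, miR-122-5p and miR-143-3p had both probes above background on both arrays, and stayed above 0 in all 15 alternatives. miR-133b-3p alone stayed past 2-fold in all 15.

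The lower miRNAs had nearly equal unscaled signals on both arrays. miR-142-3p, found across blood cell lineages, read 516 on naive, 475 ± 7.0 on light, 400 ± 1.84 on moderate and 328 on severe. It was 3.18-fold lower on moderate than on light after scaling (log2 −1.67 ± 0.02). miR-144-3p, a red-cell miRNA, read 234 ± 2.59 and 212 ± 2.93, or 2.96-fold lower (log2 −1.57 ± 0.03). For both, the 2 probes gave nearly the same difference, −1.70 and −1.65 for miR-142-3p and −1.67 and −1.54 for miR-144-3p. Over all 8 the unscaled ratio of moderate to light was 0.842 to 1.23, below 1 in 4 and above 1 in 4. The lowest unscaled log2 difference was −0.25, for miR-142-3p. A ratio well under the scale ratio of 2.68 is what the 2-fold rule selects, so these ratios describe the 8 and support nothing.

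The others of this group were dimmer. miR-466b-5p, from the Sfmbt2 cluster, read 85.4 and 89.4 (log2 −1.36 ± 0.03), and let-7d-3p, the passenger arm of let-7d, 61.7 and 63.0 (−1.39 ± 0.07). miR-32-3p read 42.1 and 43.6 (−1.37 ± 0.06), and miR-423-5p 114 and 140 (−1.12 ± 0.02). The 2 probes of miR-423-5p differed, at −1.48 and −0.79, and its brightest probe alone gave −0.54. It was past 2-fold in 9 of the 15 alternatives. miR-672-5p, at 27.1 and 25.8 (−1.49 ± 0.10), and miR-181b-5p, at 18.4 and 18.1 (−1.45 ± 0.13), rest on little signal. Each had 3 of 20 spots well above background on the light array, and 7 and 3 on the moderate array.

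On the naive array the unscaled signal of the 8 was 0.721 to 1.5 times their light signal, where the median over the 116 miRNAs measured on naive, light and moderate was 1.56. The light signal in this ratio also helped choose the 8, and detection on naive entered the scaling, so this is a description. let-7d-3p had 1 of 4 probes above background on both light and moderate, and 7 and 9 of its 20 spots well above it there. It read 65.6, 61.7 and 63.0 on naive, light and moderate, a highest over lowest of 1.06, the smallest of the 116. The median of that ratio was 2.69, and it was under 1.6 for 10 miRNAs, among them all 8. The same limit holds for this ratio. With the percentile taken over miRNAs detected on light and moderate, miR-423-5p stood at −0.90. On the severe array the 8 did not stay level: 3 were not detected, let-7d-3p read 17.6 and miR-423-5p 21.1, and miR-144-3p read 371. After scaling, the naive value lay between light and moderate for all 8. That follows largely from dividing near-level signals by 75th percentiles of 356 on light, 666 on naive and 954 on moderate.

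**Figure D2:**
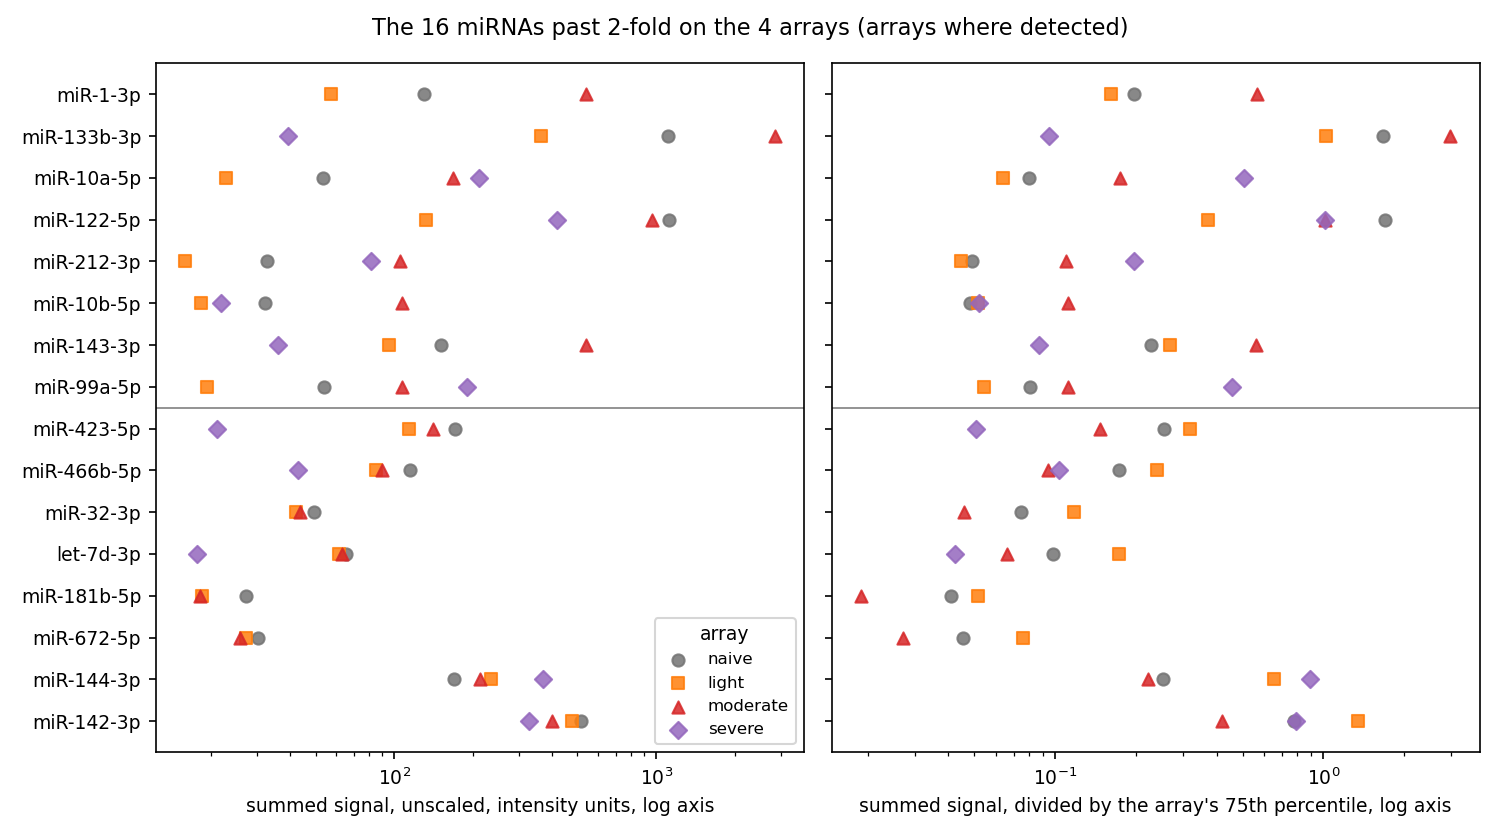
Summed signal of the 16 miRNAs past 2-fold on each array where they were detected, unscaled in intensity units (left) and divided by the array's 75th percentile (right), on log axes; higher miRNAs stand above the line and lower ones below it. On the left the naive, light and moderate points of let-7d-3p lie together at 61.7 to 65.6, while those of miR-1-3p spread from 57.2 to 539. let-7d-3p had 1 of 4 probes above background on both light and moderate.

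Partner arms of the lower miRNAs that were measured on both arrays were not past 2-fold. miR-142-5p stood at −0.57 beside −1.67 for miR-142-3p, and let-7d-5p at −0.35 beside −1.39 for let-7d-3p. miR-466b-5p, at −1.36, is entered in both the Mir466b-1 and Mir466b-2 genes, so its signal cannot be assigned to 1 hairpin. miR-466b-2-3p stood at 0.37 and miR-466b-1-3p at −0.03. The arms of the other hairpins with both arms measured on both arrays differed less: by 0.04 for miR-140, 0.20 for miR-652 and 0.33 for miR-324. miR-328a-5p and miR-328a-3p, which have no sequence entry, stood at 0.02 and −0.46. The miR-144 and miR-451 genes lie together on chromosome 10 in GRCr8, with miR-144-3p at chr10:63459446-63459465 and miR-451-5p at chr10:63459585-63459606. Yet miR-144-3p stood at −1.57 and miR-451-5p at −0.25.

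In the red-cell list 3 of 7 miRNAs were measured on both arrays, all below 0 with this scaling: miR-144-3p, then miR-451-5p at −0.25 and miR-16-5p at −0.10. miR-451-5p, the brightest miRNA of both arrays, read 19496 on light and 43837 on moderate. Its share of the summed signal was 21.8% and 19.9%, and the summed scaled signal of the list was 67.9 on light and 57.8 on moderate. The ratio of miR-451-5p to miR-23a-3p, used in serum as a sign of red-cell lysis, stood at a log2 of −0.43 from light on the moderate array and −0.02 on the naive array. The part of red-cell lysis in the other differences was not tested.

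The lymphocyte list was also chosen with earlier results of these data known. Its median was the lowest of the lists with at least 3 members measured on both arrays. All 6 members measured on both arrays were below 0, against 59 of all 117 miRNAs, and the median was −0.56. The 1 member at least 2-fold lower (6.84% of all) was miR-181b-5p, which had 0 probes above background on both arrays and 3 of 20 spots well above it on each. Their summed scaled signal was 1.76 on light and 1.38 on moderate. Minus the median of all miRNAs it was −0.55, and between −0.59 and −0.35 under the alternatives. miR-150-5p, of mature lymphocytes, read 252 on light and 486 on moderate (−0.47). The 4 members of the miR-181 seed family, regulators of lymphocyte development, stood at −1.45 (miR-181b-5p), −0.71 (miR-181a-5p), −0.65 (miR-181d-5p) and −0.28 (miR-181c-5p). miR-181b-5p and miR-181d-5p differ at 1 of 23 positions, and cross-binding of their probes was not tested. The 6 list members are thus not separate observations. miR-342-3p was nearly level at −0.09. In the myeloid and pan-leukocyte list 6 were measured on both, 2 above 0 and 4 below, with a median of −0.25. At least 2-fold lower was 1, miR-142-3p at −1.67, against 6.84% of all, and miR-142-5p stood at −0.57. miR-223-3p, of neutrophils and platelets, stood at 0.15, miR-146a-5p at −0.12 and miR-21-5p at −0.37. The platelet list had a median of 0.04 over 5 members, 4 of them above 0, with miR-126a-3p highest at 0.55. Past 2-fold were 0 of the 5, against 16 of all 117.

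Seed families differed in how closely their members lay together. The 5 members with the seed of miR-17-5p lay between −0.25 and −0.19, a range of 0.07. For the miR-17-92 cluster and its paralogs the median was −0.21, from 11 members of which 0 were past 2-fold, against 16 of all 117. miR-103-3p and miR-107-3p stood at −0.12 and −0.15, and the clusters of miR-23, miR-24 and miR-27 at a median of 0.17 over 5 members. The let-7 family, which restrains proliferation, had a median of −0.27 over 6 members with 0 past 2-fold. Its range of 0.81 was wider than that of the miR-17-5p seed: let-7f-5p was lowest at −0.58, while let-7b-5p and let-7c-5p, at 0.20 and 0.23, lay above 0. Members of let-7 differ by few bases, and cross-binding of their probes was not tested. The miR-26, miR-29 and miR-30 families had a median of 0.11 over 10 members, with miR-30c-5p highest at 0.67 and miR-30b-5p at 0.58.

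Of the miRNAs reported as raised in HCC, 8 were measured on both arrays, 4 above and 4 below 0, with a median of −0.09. Past 2-fold were 0 of them, against 16 of all 117. miR-221-3p was highest at 0.34 and miR-21-5p lowest at −0.37. miR-92b-3p, which the series title names, was detected on neither array, at −23.2 and −24.6. Of those reported as lowered, 10 were measured on both, 6 above and 4 below 0, with a median of 0.22 against −0.01 over all miRNAs. At least 2-fold higher were 2, against 6.84% of all: miR-122-5p, and miR-99a-5p, which was near the light floor. Of the Dlk1-Dio3 cluster, a large imprinted miRNA locus, 24 of 26 were detected on neither array, and miR-370-3p and miR-494-3p stood at 0.14 and −0.35. Of the epithelial list, 8 of 10 were detected on neither. Most rat miRNAs were detected on neither, since 176 of all 719 were detected on either, so this count does not set the epithelial list apart.

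**Figure D3:**
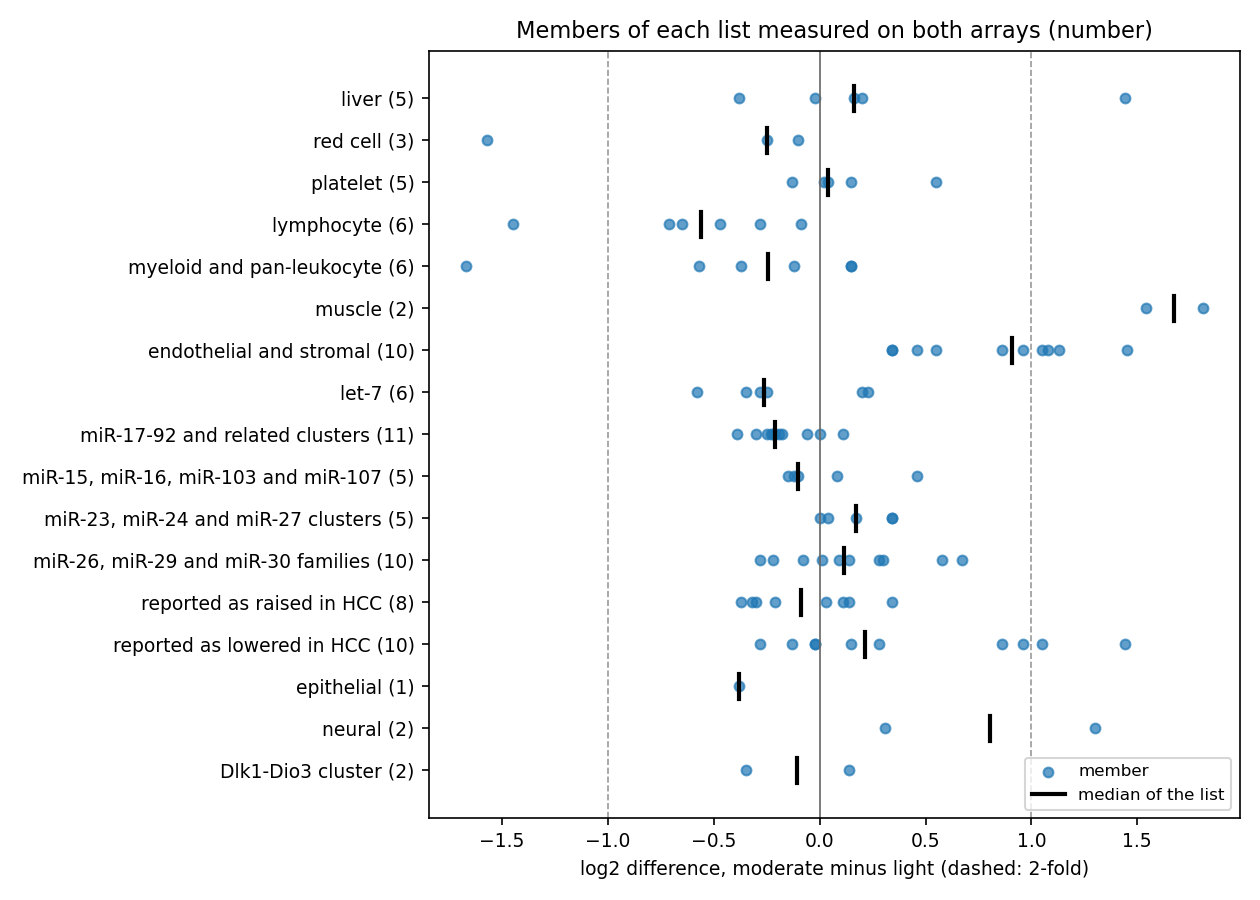
Log2 difference, moderate minus light, of the members of each of the 17 lists that were measured on both arrays; the black bar is the list's median, the number measured stands in brackets, and dashed lines mark 2-fold. The endothelial and stromal members all lie right of 0, with a median of 0.91, and the lymphocyte members all left of it, with a median of −0.56, relative to the 75th percentile. The lists were chosen with earlier results of these data known.

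The bright end of the profile was the same on both arrays. The 10 brightest miRNAs were the same 10, with 69.8% of the summed signal on light and 67.8% on moderate, and they differed by −0.77 to 0.17. miR-3584-5p, in second place on both, stood at −0.01, and miR-3473 at −0.25. miR-1224 read 6181 on light and 9745 on moderate, lowest of the 10 at −0.77, and moved from place 4 to place 6. Just outside 2-fold on the lower side was miR-211-3p at −0.94. Spread depended on signal: the standard deviation of the log2 difference across miRNAs was 0.74 among the 39 dimmest miRNAs, 0.63 among the next 39 and 0.42 among the 39 brightest. Of the 16 past 2-fold, 9 were among the 39 dimmest and 2 among the 39 brightest, miR-133b-3p and miR-142-3p.

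The 54 miRNAs detected on moderate alone were dim. Their median signal there was 19.2 and the highest 77.0, that of miR-125b-5p. For 49 of the 54, the moderate signal divided by the scale ratio lay under the floor of the light array. Of the 54, 18 were also detected on the naive array and 12 on the severe array, and 30 on no other array. Measured on moderate alone were 48 miRNAs, of which 8 had a bound above 1-fold and 0 a bound of 2-fold or more. After miR-125b-5p came miR-24-2-5p, which the scanner software also detected on light, at least 1.52-fold (61.6 against 6.03). Then came miR-151-5p at least 1.24-fold, miR-195-5p as above, miR-188-5p at least 1.16-fold and miR-331-3p at least 1.11-fold higher. miR-191a-5p, of platelets and other blood cells, read 39.2 against −15.9, miR-362-3p 38.2 against 12.2, miR-3559-5p 36.8 against 6.64 and miR-290 33.7 against 15.8, all with no bound above 1-fold. miR-883-5p was the reverse case, detected on both but measured on light alone, at 18.7 against 12.3, at least 3.84-fold lower. Both signals lie near the floors.

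**Figure D4:**
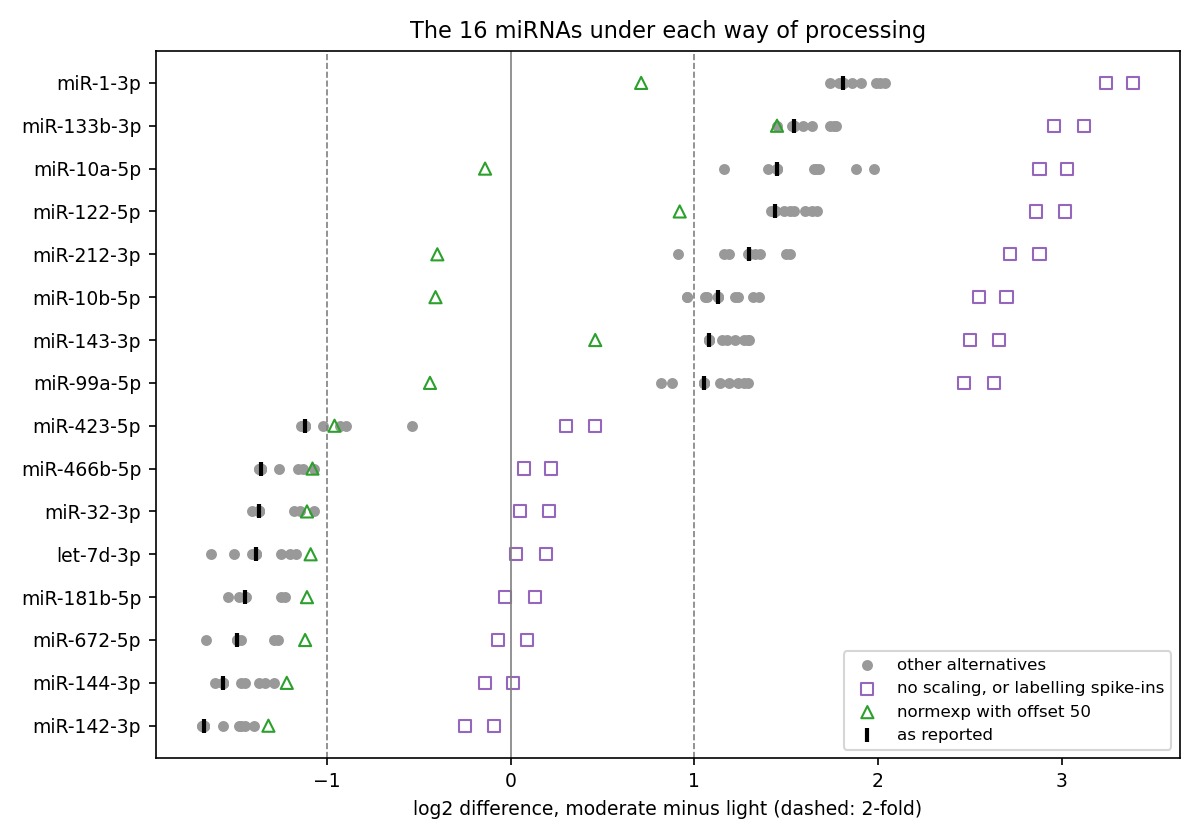
Log2 difference, moderate minus light, of the 16 miRNAs past 2-fold as reported (black bar) and under the alternatives (points); squares are unscaled signals or division by spike-ins, triangles are normexp, and dashed lines mark 2-fold. The higher miRNAs lie right of 0 in all scalings, and 4 of them cross it with normexp; the lower ones lie between −0.25 and 0.46 at the squares.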

How the data were processed

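Exosome RNA was hybridised to arrays of design 046066, 4 on 1 slide. The deposited intensity per spot came from Feature Extraction 10.7.3.1, background-subtracted and not scaled between arrays, per the file headers; the submitters' processing notes name version 9.1. The labelling protocol in the labels amplifies cRNA, as for messenger RNA. Detection calls and spot flags are also the deposited ones. The authors' value table holds linear intensity of 102 miRNAs (medians 107 on light, 304 on moderate), within 0.0424% of the scanner total.

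Spots were averaged per probe without outlier spots (387 of 14380 on light, 386 on moderate; 0 saturated), and probes summed per miRNA. The median spot coefficient of variation was 5.87% and 4.80%. The floor was the dimmest probe that stood well above background in 0.5 or more of its spots (15.1 on light, 13.1 on moderate). A bound compares with the higher of that floor and the miRNA's own signal, and is not strict, since a floor is 1 probe and a miRNA a sum. The number of arrays limits precision.

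Named were up to 15 miRNAs a direction past 2-fold, up to 10 measured on 1 array alone, the 10 brightest and members of the 17 lists. The members and lists were chosen with earlier results of these data known; miR-208a-5p and miR-211-3p were named after their values were seen. Of the listed names, 6 had no match. Alternatives changed scaling, background (limma 3.58.1, normexp on the median signal), probe summary, detection and floor. Python 3.11.15 was used, and the code was checked on simulated arrays. Coordinates are GRCr8; the files' rn4 was not used.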

Additional observations from a re-analysis of the deposited data

How the results depend on the processing

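The 8 higher and 8 lower miRNAs were recounted under 15 alternatives. Normexp also changed the spot statistic and added 50 units, and the deposited table also changed the summary and the set of miRNAs (100 measured on both). Without scaling 99 were higher and 0 lower, and with labelling spike-ins 104 and 0, and the median over the 117 miRNAs was then 1.41 and 1.57, against −0.01. The higher count was 1 with normexp and 5 as the median over probes. The lower count was 4 in the deposited value table, and 5 both with detection by spots well above background and without miRNAs under 50 units. In the other alternatives both counts stayed within 1.5 times. Single values that changed sign with normexp were miR-10a-5p (−0.14), miR-212-3p (−0.40), miR-10b-5p (−0.41) and miR-99a-5p (−0.44); its added 50 units lower folds by construction. With labelling spike-ins miR-144-3p came to 0.01, miR-672-5p to 0.09, miR-181b-5p to 0.13, let-7d-3p to 0.19, miR-32-3p to 0.21, miR-466b-5p to 0.22 and miR-423-5p to 0.46. Without scaling let-7d-3p came to 0.03, miR-32-3p to 0.05, miR-466b-5p to 0.07 and miR-423-5p to 0.30. Without scaling, the shift is that of the scale ratio of 2.68, and with spike-ins also that of their ratio of 0.896. Scaling by the 75th percentile over all rat miRNAs gave no value, since that percentile was −0.739 on the light array. No paired analysis was possible because each group has 1 array. Low signal over background limits miR-181b-5p, miR-672-5p, let-7d-3p and the higher miRNAs near the floor.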
